A study of Sus scrofa with 20 samples.

Results

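miR-182 and miR-183 are mature microRNAs cut from neighbouring hairpins, and they are followed here in pig blood cells around an experimental brain bleed. The members were taken by name: the entries ssc-miR-182 and ssc-miR-183 of a pig-reference count table and the entries hsa-miR-182-5p and hsa-miR-183-5p of a human-reference table of the same libraries. They are 4 of 892 entries, with 2 of 284 in the pig table and 2 of 608 in the human table, and they stand for 2 distinct miRNAs. Entries for miR-96, whose hairpin lies between them, were read as well.

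The cells were PBMCs, the mononuclear cells of blood (lymphocytes and monocytes) that a density gradient keeps, and the animals were female American Yorkshire pigs aged 80 to 90 days and weighing 36 to 41 kg. The ICH group held 10 libraries of blood drawn 6 h after intracerebral hemorrhage, which was modelled with autologous blood infused through a burr hole into white matter of the frontal lobe. The Control group held 10 libraries of blood drawn before that procedure, from untreated animals, and the titles give both groups the replicate numbers 1 to 10. No sham-operated group was analysed here, so effects of the bleed, the surgery and the 6 h interval cannot be told apart.

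A miRNA guides a silencing complex to messenger RNAs that match its seed, the bases 2 to 8 of the mature strand. The hairpins of miR-183, miR-96 and miR-182 are transcribed together in vertebrates, and the cluster is best known from sensory organs, where changes in the miR-96 seed cause hearing loss in human and mouse. In mouse T cells, miR-182 is induced by interleukin-2 signalling and lowers Foxo1, a transcription factor that holds lymphocytes at rest, and the cluster has been linked to Th17 cells, the interleukin-17 producing helper T cells. The seeds of miR-182 and miR-96 are closely similar, and that of miR-183 is different.

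In the Sscrofa11.1 annotation the 3 hairpins lie on chromosome 18. MIR183 spans 18982269 to 18982338, MIR96 spans 18982506 to 18982590, and MIR182 spans 18986830 to 18986913. MIR183 and MIR96 are 167 bases apart, whereas 4239 bases separate MIR96 from MIR182. No other annotated gene overlaps the interval of 4645 bases that holds all 3. The nearest protein-coding genes are UBE2H, which ends 49359 bases below it, and NRF1, which starts 21494 bases above it.

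The libraries held 896960 to 2103685 pig-reference reads each. Lymphocyte miRNAs made up a median of 2.61% of reads in ICH and 3.67% in Control libraries (8 of 8 list entries detected). Epithelial miRNAs of the pig table were at a median of 0% in both groups, with ssc-miR-205 alone listed, at 6 reads over all libraries. The human-reference table lists 10 such entries, with median summed shares of 0.165% in ICH and 0.254% in Control. Most of those reads were of hsa-miR-203a-3p, so the 0% reflects the short pig list. Whether same-numbered libraries came from the same animal is not stated in words, but same-numbered libraries tended to deviate together in the counts. The comparisons below were therefore made within replicate numbers (a block in the fit), and the values without the block are given where they change a call.

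miR-182 was the more abundant member. It had 680 to 4006 reads per library in ICH and 761 to 2172 in Control. On the counts-per-million scale (CPM, with TMM-adjusted library sizes), ssc-miR-182 had a lowest value of 691.0, a median of 1511 and a highest value of 2977 CPM in ICH, against 605.3, 887.2 and 2571 CPM in Control. The ICH and Control libraries overlapped over most of this range. ICH numbers 8 and 9 were the highest libraries, and ICH numbers 2 and 3 were the lowest of their group. By mean CPM over all libraries it ranked 51st of 179 miRNAs tested.

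miR-183 was far scarcer. It had 24 to 119 reads per library in ICH and 22 to 78 in Control. The lowest, median and highest values of ssc-miR-183 were 18.2, 41.8 and 97.2 CPM in ICH, against 13.6, 34.9 and 69.3 CPM in Control, again with wide overlap. ICH number 5 and Control number 5 were the lowest libraries of their groups, and ICH numbers 1 and 8 were the highest. Summed over libraries, miR-182 had 34.5 times the reads of miR-183 in ICH and 31.4 times in Control. Read ratios between miRNAs also carry differences in ligation and capture, so they are not ratios of molecules.

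miR-96 was scarcer still. ssc-miR-96-5p had 0 to 9 reads per library in ICH, with a sum of 54, and 1 to 11 in Control, with a sum of 68. ICH number 2 had 0 reads, which allows up to 3.15 RPM (reads-per-million of the library total, with no scaling factor; 3 counts of the library, counting error only). miR-182 thus had 411 times the reads of miR-96 in ICH and 216 times in Control.

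The opposite arms of the hairpins were nearly unseen under their human-reference entries. hsa-miR-182-3p summed to 6 reads in ICH and 7 in Control, and hsa-miR-183-3p to 1 read in ICH and 2 in Control. The corresponding 5p sums were 22207 and 644 reads in ICH, and 14706 and 468 in Control. By the human-reference entries, both hairpins were therefore read almost entirely from the 5p arm in either group. Whether those 3p entries capture the pig 3p strands was not tested, so a shortfall in their counts cannot be told apart from scarcity.

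**Figure D1:**
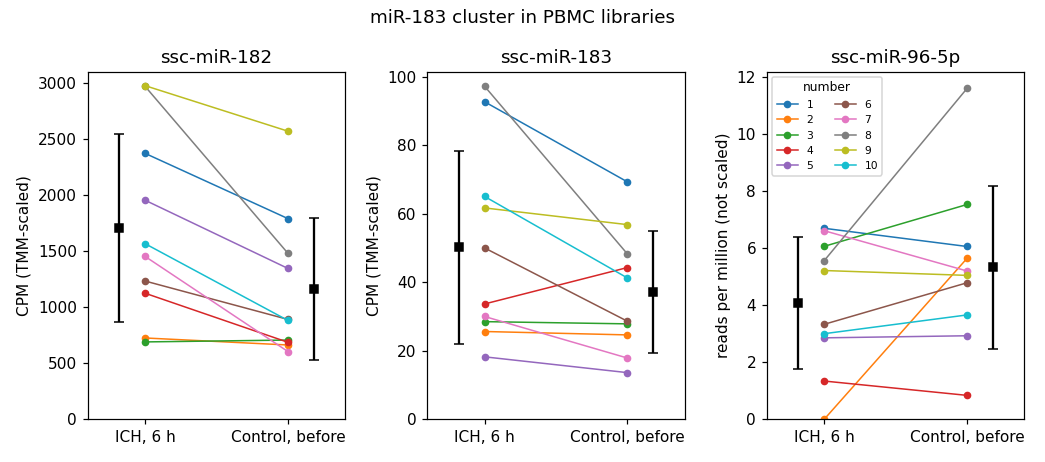
Levels of the 3 mature miRNAs of the cluster in every library, with ICH on the left and Control on the right of each panel. Points are libraries, lines join the same replicate number, and black squares with bars are the group mean and SD (n = 10); miR-182 and miR-183 are in TMM-scaled CPM and miR-96 in RPM. Most lines for miR-182 and miR-183 are higher on the ICH side, number 4 is the exception for miR-183, and miR-96 stays at or under 11.6 RPM.

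The spread between libraries of a group was wide for both members. Across Control libraries miR-182 spanned 4.24-fold and miR-183 4.68-fold, and the SD of log2 CPM was 0.71 for each. Those spreads ranked 12th and 11th of 179 miRNAs tested. Numbers that were high in Control tended to be high in ICH. The log2 CPM of a number's Control library correlated with that of its ICH library for miR-182 (Pearson's r = 0.849, permutation p = 0.00204, adjusted p = 0.012; Spearman's rho = 0.806, permutation p = 0.0074, adjusted p = 0.0419; n = 10 numbers). For miR-183 the values were r = 0.852 (permutation p = 0.00211, adjusted p = 0.012) and rho = 0.855 (permutation p = 0.00274, adjusted p = 0.0233). Without the 2 numbers farthest from the median in Control, r was 0.795 for miR-182 and 0.713 for miR-183. These were among 4 correlations added after the counts were seen to 13 planned ones, and the p values were adjusted over all 17.

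The first comparison asked whether either miRNA differed at 6 h after ICH from its level in blood drawn beforehand. Within replicate numbers miR-182 rose 1.47-fold, and miR-183, at the lower counts, rose 1.33-fold. Both passed the test in the pig-reference fit over all 179 miRNAs, in which 21 (11.7%) were called higher and 18 (10.1%) lower. Scaled to library totals, 16 were called higher and 20 lower. miR-182 was 9th by fold change and 8th by p among the 179, and miR-183 was 20th and 37th. In bulk cells, more cells of a type and more RNA per cell cannot be told apart.

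The log2 fold change of ssc-miR-182 was 0.55 ± 0.11 (SE; adjusted p = 0.00245, edgeR quasi-likelihood test with Benjamini-Hochberg adjustment), with means of 1708 ± 840 CPM in ICH and 1163 ± 637 CPM in Control (SD, n = 10 each). It was higher after ICH in 9 of 10 numbers. The change ran from -0.03 in number 3 to 1.26 in number 7 on the log2 scale, with a median of 0.50. In number 7 that was 1454 CPM in ICH against 605.3 CPM in Control, and in number 8 it was 2972 against 1482 CPM. The other rises above the median were 0.83 in number 10, 0.71 in number 4 and 0.54 in number 5. Numbers 2 and 9 changed least among those that were higher, at 726.3 CPM in ICH against 663.7 CPM in Control and 2977 against 2571 CPM.

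The log2 fold change of ssc-miR-183 was 0.41 ± 0.14 (SE; adjusted p = 0.0419, edgeR), with means of 50.3 ± 28.2 CPM in ICH and 37.2 ± 17.8 CPM in Control (SD, n = 10 each). It too was higher after ICH in 9 of 10 numbers by TMM-scaled CPM, and in 8 of 10 when scaled to library totals. The next largest changes after number 8 were 0.77 in number 6, 0.70 in number 7 and 0.64 in number 10. The largest was in number 8, at 97.2 CPM in ICH against 48.2 CPM in Control, and the exception was number 4, at 33.7 against 44.3 CPM. Its change varied between numbers with an SD of 0.42 on the log2 scale, where counting error alone would give 0.30. For miR-182 the corresponding SDs were 0.40 and 0.053, so its spread lay far above counting error.

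**Figure D2:**
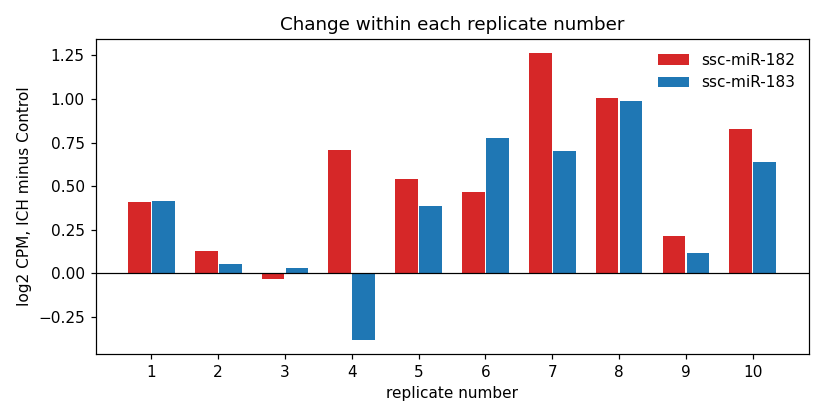
Change in log2 CPM (ICH minus Control) of ssc-miR-182 in red and ssc-miR-183 in blue, for each of the 10 replicate numbers. Both bars are near 0 in numbers 2, 3 and 9 and near 1 in number 8, and number 4 is the only one in which they point in clearly different directions.

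The calls rested on the pairing, and the call of miR-183 on more than that. Without the replicate block the log2 fold changes were 0.56 ± 0.29 for miR-182 (adjusted p = 0.286, edgeR) and 0.44 ± 0.31 for miR-183 (adjusted p = 0.462, edgeR). That fit called 0 of 179 miRNAs (0%), with 35 at an unadjusted p under 0.05. With the block, miR-182 kept its call under each of the 8 other settings of scaling, filter or tool and without each number in turn, at 0.48 to 0.62. miR-183 lost its call with library totals (0.36 ± 0.15, adjusted p = 0.0773, edgeR) and with limma on deposited RPM (0.39 ± 0.13, adjusted p = 0.0793, pseudocount of 1). It also lost it without number 5, 6, 7, 8 or 10, where the log2 fold change was 0.34 to 0.41 and the adjusted p 0.0611 to 0.105 (edgeR).

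**Figure D3:**
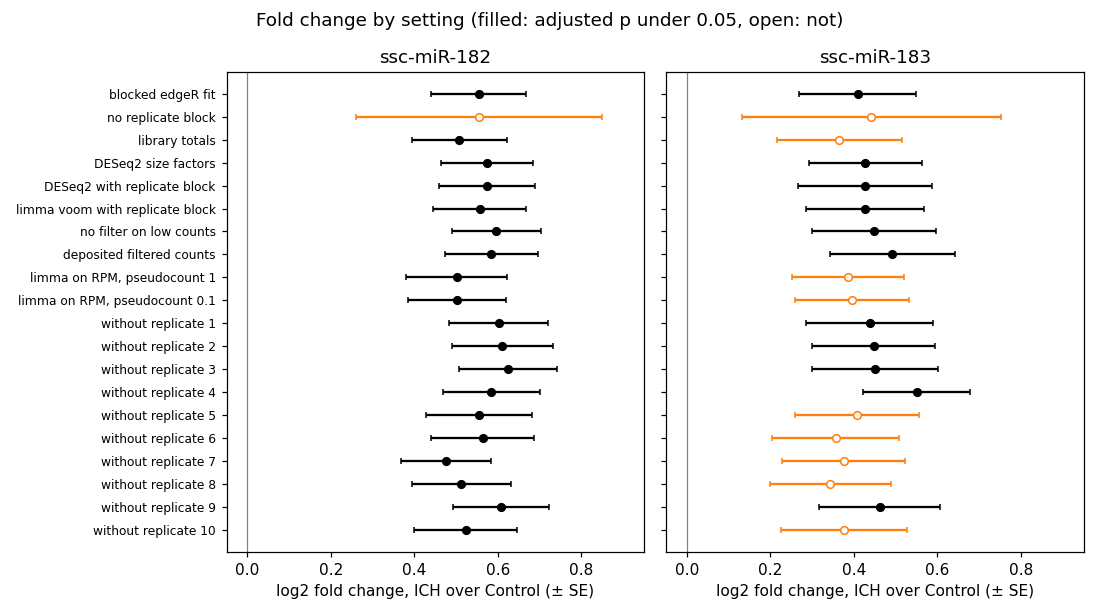
Log2 fold change (ICH over Control) with its SE for ssc-miR-182 on the left and ssc-miR-183 on the right, under the blocked edgeR fit and each other setting. Filled points passed an adjusted p of 0.05 and open points did not; every estimate is above 0, miR-182 is open only without the replicate block, and miR-183 is open in 9 settings.

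The human-reference table gave the same reads a different background. Its counts equalled the pig-reference counts in 20 of 20 libraries for miR-183 and 19 of 20 for miR-182, where Control number 3 differed by 1 read. The fits still differed, since other miRNAs enter the scaling. The change was 0.62 ± 0.11 on the log2 scale for hsa-miR-182-5p (adjusted p = 0.000415, edgeR with the block) and 0.47 ± 0.15 for hsa-miR-183-5p (adjusted p = 0.0253), beside 32 of 245 miRNAs called higher (13.1%) and 15 called lower (6.12%). Library totals gave 15 higher and 24 lower calls there and moved the median log2 fold change of all human-reference miRNAs by -0.11. Relative to that median, hsa-miR-182-5p stood at 0.59 with either scaling and hsa-miR-183-5p at 0.45. A change of scaling moves all miRNAs nearly alike, so these values could hardly differ and are no separate support. With library totals, however, hsa-miR-183-5p lost its call (0.37, adjusted p = 0.104, edgeR), as it did without number 1, 5, 6, 7, 8, 9 or 10. Without the block neither was among the 9 of 245 (3.67%) called (adjusted p = 0.273 and 0.407, edgeR).

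Taken as a plain share of pig-reference reads, with no scaling factor, miR-182 and miR-183 together held 0.169% ± 0.0732 of reads in ICH and 0.119% ± 0.0538 in Control (SD, n = 10 each). The share was 0.0501 percentage points larger in ICH (95% interval 0.0256 to 0.0728) and larger in 9 of 10 numbers (exact two-sided sign-flip permutation test, p = 0.00586). A permutation test that ignores the pairs gave p = 0.0964. Within one library the share was well determined. miR-182 was at 2609 RPM (exact 95% interval 2529 to 2691) in ICH number 9 and at 640.3 (595.6 to 687.4) in Control number 4. The intervals for miR-183 were wider, with 101 RPM (81.7 to 125) in ICH number 1 and 12.9 (8.07 to 19.5) in Control number 5. These intervals cover counting error only.

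The next comparison asked whether the neighbouring hairpins changed by different amounts, from the ratio of their counts inside each library, to which scaling factors are irrelevant. The log2 ratio of miR-182 to miR-183 was 5.11 ± 0.68 in ICH and 4.94 ± 0.71 in Control (SD, n = 10 each). The difference was 0.17 ± 0.12 (SE), with a 95% interval of -0.07 to 0.45, and the ratio was higher in 6 of 10 numbers (exact two-sided sign-flip permutation test, p = 0.232). A difference in how far the pair rose was thus not detected, while the interval includes a rise of miR-182 up to 0.45 larger on the log2 scale. Number 5 had the highest ratio in both groups, at 6.72 in ICH and 6.59 in Control, and miR-183 had the lowest CPM of each group there. Without number 6 the difference was 0.22 (exact sign-flip p = 0.043), without number 4 it was 0.06 (exact p = 0.465), and without each of the others it was 0.13 to 0.19.

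For miR-96 no rise was detected at its low counts. In a fit without a filter on low counts its log2 fold change was -0.24 ± 0.31 (adjusted p = 0.706, edgeR with the block). Ratios to miR-96 within a library were compared without number 2, whose ICH library had 0 miR-96 reads and so gives only a bound. In the other 9 numbers the log2 ratio of miR-182 to miR-96 was 8.51 ± 0.73 in ICH and 7.83 ± 0.79 in Control (SD), higher in 9 of 9 by a mean of 0.68 ± 0.16 (SE; 95% interval 0.30 to 1.07, exact sign-flip permutation p = 0.00391, the smallest it can give). In number 2 it was at least 7.82 in ICH (3 counts of miR-96 as the floor), against 6.75 in Control. The log2 ratio of miR-183 to miR-96 was 3.36 ± 0.85 in ICH and 2.86 ± 1.004 in Control (SD, n = 9 each), higher in 8 of 9 numbers. Its mean difference of 0.50 ± 0.24 (SE; 95% interval -0.07 to 1.08) did not pass (exact sign-flip permutation p = 0.0781). With all 10 numbers and 0.5 added to each count, the differences were 0.98 (exact p = 0.00195, adjusted p = 0.00391 over 2 ratios) and 0.81 (exact p = 0.0391, adjusted p = 0.0391), and number 2 enters these through the added 0.5. The second of these also lost its call without number 1, 5, 6, 8 or 10, with the deposited filtered counts (exact p = 0.0859), and in a permutation test that ignores the pairs (p = 0.0964). Both ratios were chosen after the counts were seen, number 2 was set aside after its 0 was seen, and they rest on at most 11 reads of miR-96 per library.

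A miRNA known to share its seed with miR-96 was abundant. hsa-miR-1271-5p, named after its values were seen, had 1166 to 3276 reads per library in ICH and 1008 to 3061 in Control. It averaged 1329 ± 130 CPM in ICH and 1382 ± 252 CPM in Control (SD, n = 10 each), near the level of miR-182 in the same table (1697 ± 844 CPM in ICH and 1104 ± 619 CPM in Control). Its log2 fold change was -0.04 ± 0.095 (adjusted p = 0.839, edgeR with the block). Among libraries of the Control group it varied less than miR-182, with an SD of log2 CPM of 0.28 against 0.71.

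Markers of other blood cells changed in different directions, and many were not called. Over all 179 miRNAs tested in the pig table, 11.7% were called higher and 10.1% lower. In the erythroid list 1 of the 4 entries tested in the pig table rose, 0 fell and 3 were not called, with a median log2 fold change of 0.48 against -0.04 over all 179 miRNAs. The one that rose was miR-486, an miRNA of red cell precursors (0.57 ± 0.13, adjusted p = 0.00398, edgeR). miR-451, the dominant miRNA of red cells, had 0.57 ± 0.27 (adjusted p = 0.158), miR-144, made from the same transcript, had 0.40 ± 0.15 (adjusted p = 0.065), and miR-363 had -0.23 ± 0.084 (adjusted p = 0.0567). The list's summed share of reads was 0.302% to 0.551% in ICH and 0.332% to 0.694% in Control, and miR-363 supplied most of it.

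**Figure D4:**
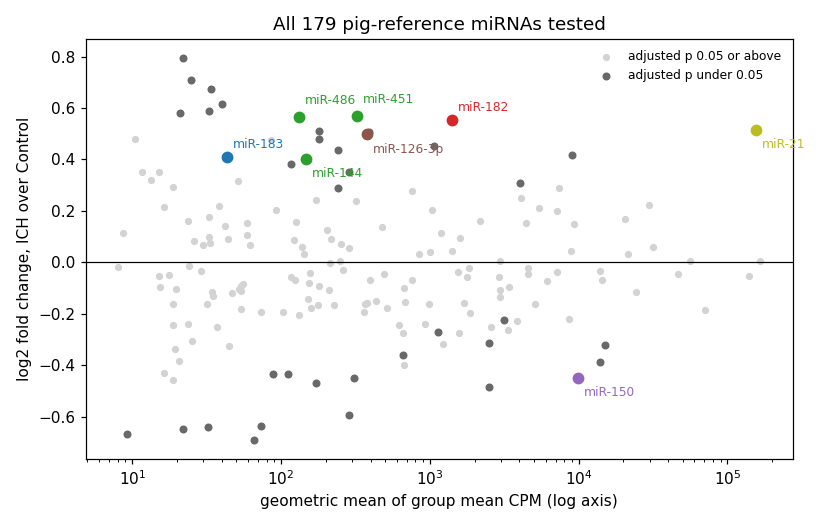
Log2 fold change (ICH over Control, blocked fit) against the geometric mean of the group mean CPM, on a log axis, for the 179 pig-reference miRNAs tested. Dark points passed an adjusted p of 0.05; miR-182 lies at 0.55 among the abundant miRNAs that rose and miR-183 at 0.41 among the scarce ones, with miR-486, miR-126-3p and miR-21 at 0.50 to 0.57 and miR-150 at -0.45.

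The next list counts stand beside the same shares over all 179 miRNAs, 11.7% called higher and 10.1% lower. In the platelet list 1 of 5 tested entries rose and 2 fell (median -0.05). miR-126-3p, an miRNA of platelets and endothelial cells, was at 0.50 ± 0.098, while miR-151-5p was at -0.44 ± 0.11 and miR-151-3p at -0.27 ± 0.089. The summed share of this list was 4.16% to 5.57% in ICH and 4.13% to 6.03% in Control. Most of it came from miR-191, with 1246883 reads over all libraries against 10363 for miR-126-3p. miR-191 was not called (-0.05 ± 0.082, adjusted p = 0.719, edgeR). In the lymphocyte list 0 of 8 rose and 6 fell, by 0.22 to 0.69 on the log2 scale: miR-31 fell most, then miR-29a, miR-150, miR-29b, miR-181a and miR-181b. Its share was 1.85% to 3.58% in ICH and 2.29% to 4.48% in Control. In the myeloid list 0 of 6 rose and 0 fell, with a share of 1.79% to 2.59% in ICH and 1.63% to 2.69% in Control, and miR-22-3p (0.15 ± 0.075) and miR-24-1-5p (0.12 ± 0.098) had the smallest p. In the brain list 1 of 3 rose, the joined entry miR-9@ (0.48 ± 0.12), and miR-128 was not called, at 0.15 ± 0.11. The summed share of the brain list was 0.666% to 1.65% in ICH and 0.576% to 1.08% in Control. Most of it came from miR-128, with 244043 reads over all libraries against 4845 for miR-9@. The part of any of these cells in the rise of miR-182 and miR-183 was not tested.

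Further lists follow what the members are known for. Of 8 tested pig entries in a list of miRNAs that change when T cells are activated in human or mouse, 1 rose and 1 fell (median -0.16). These counts were near the shares called over all 179 miRNAs, 11.7% higher and 10.1% lower. miR-21, which activated lymphocytes induce, rose by 0.52 ± 0.095, miR-132 fell by 0.65 on the log2 scale, and miR-155-5p, a hallmark of T cell activation, was at 0.11 ± 0.088 (adjusted p = 0.379, edgeR) and was named after its value was seen. This list held 14.3% to 22.3% of reads in ICH and 9.0% to 18.8% in Control, of which miR-21 was the largest part. Of other miRNAs reported to target FOXO1 in human or mouse cells, 2 were tested in the pig table and neither passed, miR-27a at -0.02 ± 0.086 and miR-27b-3p at -0.25 ± 0.091. With the human reference, of the arms that are usually meant by these names, hsa-miR-223-3p, an miRNA of myeloid cells, rose by 0.63 ± 0.15. hsa-miR-27a-3p was at 0.04 ± 0.087 (adjusted p = 0.819, edgeR) and hsa-miR-27b-3p at -0.19 ± 0.09 (adjusted p = 0.161). Because names were matched without the arm, that list also took the less abundant opposite arms, whose seeds differ, and hsa-miR-223-5p (0.82 ± 0.12) and hsa-miR-27a-5p (0.73 ± 0.11) rose. Counted with them, 3 of 5 entries rose and 0 fell (median 0.63 against 0.03 over all 245 miRNAs). Of those 245, 13.1% were called higher and 6.12% lower. Messenger RNAs were not analysed here, so no change of a target was measured.

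The human-reference table, which holds more arms and miR-223, gave the lists other counts for the same libraries. Over all 245 miRNAs tested there, 13.1% were called higher and 6.12% lower. In its lymphocyte list 0 of 13 tested entries rose and 5 fell (median -0.32), namely hsa-miR-31-5p, hsa-miR-29a-3p, hsa-miR-150-5p, hsa-miR-29b-3p and hsa-miR-181a-5p. In its myeloid list 3 of 9 rose and 0 fell (median 0.19), and these were both arms of miR-223, the chief miRNA of granulocytes and monocytes, and hsa-miR-27a-5p. Of 6 erythroid entries 2 rose and 0 fell (median 0.49), hsa-miR-486-5p at 0.63 ± 0.13 and hsa-miR-144-3p at 0.47 ± 0.14. Of 5 platelet entries 1 rose and 0 fell (median 0.28), hsa-miR-126-3p at 0.56 ± 0.10, while hsa-miR-151a-3p was at -0.20 ± 0.092. Of 5 brain entries 1 rose and 0 fell (median 0.12), hsa-miR-9-5p at 0.54 ± 0.11, and hsa-miR-128-3p was at 0.21 ± 0.11. Of 2 epithelial entries tested, hsa-miR-200c-3p rose by 0.43 ± 0.15 and hsa-miR-203a-3p was lower, at -0.45 ± 0.092. The list's share was 0.133% to 0.237% in ICH and 0.174% to 0.319% in Control. Of 10 T cell activation entries 1 rose and 2 fell (median -0.09), hsa-miR-21-5p at 0.58 ± 0.093 and both arms of miR-132 at -0.58 ± 0.15 and -0.59 ± 0.21.

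The last comparison asked which miRNAs changed together with the members across replicate numbers. The changes of miR-182 and miR-183 correlated with r = 0.557 (permutation p = 0.0957, adjusted p = 0.181) and rho = 0.60 (permutation p = 0.0739, adjusted p = 0.14; n = 10 numbers), and r was 0.452 without the 2 numbers farthest from the median. Number 4 moved this value most, and r was 0.839 without it (permutation p = 0.00529). By this measure miR-183 ranked only 14th of the 178 other miRNAs in likeness to miR-182, and miR-182 ranked 32nd in likeness to miR-183. All changes share each library's scaling factor.

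The miRNA whose changes were most like those of miR-182 was miR-486, with r = 0.903 (permutation p = 0.00057, adjusted p = 0.00969) and rho = 0.867 (permutation p = 0.00214, adjusted p = 0.0233; n = 10). It held at r = 0.867 without the 2 farthest numbers, at 0.892 with library totals and at 0.87 to 0.94 without each number in turn. Both miRNAs were level or lower in number 3 (-0.24 for miR-486) and both rose most in numbers 7 and 8 (1.08 and 1.26 for miR-486). For miR-451 and miR-144 no such relation was seen, with r = 0.067 (permutation p = 0.862) and r = -0.03 (permutation p = 0.942). Their largest changes were in number 4, at 3.18 and 1.76. The remaining erythroid entry, miR-363, was not among the planned correlations. After miR-486 came miR-10a-5p (r = 0.846), miR-152 (r = 0.813), miR-95 (r = 0.735) and miR-7134-3p (r = 0.705). Of these 5, miR-486, miR-10a-5p and miR-152 rose, miR-95 fell and miR-7134-3p did not pass, so likeness by this measure did not go with a shared direction.

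**Figure D5:**
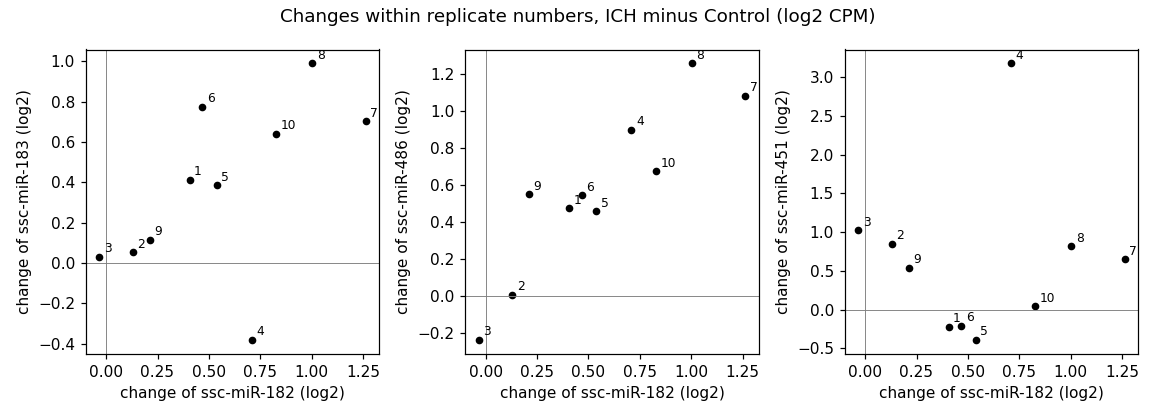
Changes in log2 CPM within replicate numbers (ICH minus Control) of miR-183, miR-486 and miR-451 against those of miR-182; each point is 1 of 10 numbers. The points for miR-486 lie along a rising line (r = 0.903), those for miR-183 do so except number 4 (r = 0.557), and those for miR-451 do not (r = 0.067), with number 4 far above the rest.

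The miRNAs most like miR-183 were miR-92b-3p (r = 0.892), let-7d-3p (r = 0.873), miR-2320-3p (r = 0.865), miR-1343 (r = 0.859) and miR-7144-5p (r = 0.858), and none of these 5 passed the test of the change itself. Against the planned markers, the change of miR-183 ran opposite to that of miR-150, the mature lymphocyte miRNA (r = -0.79, permutation p = 0.00428, adjusted p = 0.0182; rho = -0.60, permutation p = 0.0743, adjusted p = 0.14). Without numbers 4 and 8 that r was -0.29, so the relation rested on them. The change of miR-183 against that of miR-126-3p gave r = 0.562 (permutation p = 0.0905, adjusted p = 0.181) and rho = 0.733 (permutation p = 0.0199, adjusted p = 0.0847), and against that of miR-451 r = -0.65 (permutation p = 0.0336, adjusted p = 0.114). The other planned correlations of either member, with miR-21, miR-144, miR-150, miR-126-3p or miR-486, had an adjusted p for r of 0.181 or more. Without numbers 4 and 8, the r of miR-183 was higher with miR-126-3p, at 0.875. With miR-486 it was 0.78, against 0.479 over all numbers. It was weaker with miR-451 (-0.59), miR-144 (-0.46) and miR-21 (-0.31). No p was computed for these values.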

How the data were processed

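PBMC total RNA was made into small RNA libraries (NEBNext kit), per the labels' protocols. The authors deposited whole-number counts of reads for each miRNA, unfiltered and filtered, and RPM values, which equal the filtered counts scaled to their library total within 0.005. Tools named in the submitters' processing notes are Bowtie, bcl2fastq and FastQC, and the named builds are GRCh38, hg38 and Sscrofa11.1; how reads were counted and filtered is not given in the sources used here. Unfiltered counts were tested with edgeR 4.0.16 in R 4.3.3 (TMM, filterByExpr, robust quasi-likelihood fit, replicate number as a block), adjusted by Benjamini-Hochberg over all miRNAs tested, at 0.05. All 4 members passed the filter on low counts and miR-96 did not. SEs were computed as the size of the log2 fold change divided by the root of F. DESeq2 1.42.0, limma 3.58.1, other scalings and filters, and leaving out each number were alternatives. The fit was tested on simulated data.

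The design text describes a sample before and another after ICH. Deviations of same-numbered libraries correlated at r = 0.129 to 0.768 over the 10 numbers, against a median of -0.06 between different numbers. The numbers were taken as pairs because of the design text, and these correlations come from the same counts that were tested. The lowest of these r is weak, and the range between different numbers is not given here. Same-numbered libraries also follow each other in the labels' library order, and the part of shared handling was not tested. The smallest chi-square per degree of freedom between libraries of a group was 27.7, so no library was a copy of another of its group within counting noise. Libraries of different groups were not compared in this way. The check does not show that libraries come from different samples. Replicates are separate libraries by label. With the block or the pairs, p values cover the spread of the change between numbers. Only tests that ignore the pairs cover the spread between libraries. Ratios used counts plus 0.5 and an exact sign-flip test over 1024 arrangements, and 95% intervals invert it. Correlations used 100000 resamples with scipy 1.17.1. log2 CPM used a prior count of 2.

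The members and lists were chosen with earlier results of these data known. Named miRNAs are the members, other entries of the cluster, the 5 closest to each member by r, the called entries and the 2 with the smallest p of each list, and 6 markers. Entries that share a member's seed were to be named as well; mature sequences were not used here, so that rule was not applied. List names were compared after dropping the species prefix and the arm. Positions come from an NCBI RefSeq gene table without strand.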

Additional observations from a re-analysis of the deposited data

Results flagged for a closer look

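Of 24 groups of 10 libraries (the members, their ratio, their share, miR-96, miR-1271-5p and 6 marker miRNAs), 5 had 1 extreme library whose gap to the next one, as a share of the range, passed Dixon's limit at 95%; chance gives about 1 in 20. For the members only the ratio was among them: the log2 ratio of miR-182 to miR-183 was 6.718 in ICH number 5, with the remaining ICH libraries at 4.581 to 5.584. The Control library of number 5 had the highest ratio of that group as well, at 6.59, without passing the limit.

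The others were markers. ICH number 4 was low for miR-486 (6.059 log2 CPM against 6.967 to 7.991) and for miR-126-3p (8.051 against 8.634 to 9.048). Control number 4 was low for miR-144 (4.743 against 6.155 to 7.637), and ICH number 1 was low for miR-21 (16.85 against 17.36 to 17.76). Without number 4 the log2 fold change was 0.58 for miR-182 and 0.55 for miR-183, and both passed the test.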

How the results depend on the processing

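All 76 fits of the 4 member entries under an alternative had a log2 fold change above 0. Without the replicate block the log2 fold changes of 0.5554 and 0.442 (pig reference) and 0.6207 and 0.5085 (human reference) for miR-182 and miR-183 no longer passed, the calls were 0 and 9 in place of 39 and 47, and the summed share, at 0.05008 percentage points, and the log2 ratio of miR-183 to miR-96, at 0.8078, each gave p = 0.0964. miR-183 also lost its call with library totals (0.3648 and 0.369), with limma on RPM (0.385 and 0.389 with a pseudocount of 1, 0.3964 and 0.4009 with 0.1) and, in the human table, with no filter on low counts (0.4132). limma on RPM called 20 and 19 pig-reference and 15 and 16 human-reference miRNAs. Leaving out each number gave 0.3431 to 0.5501 for ssc-miR-183, 0.363 to 0.5278 for hsa-miR-183-5p, 27 to 59 calls in the pig table (the highest without number 4), 0.06403 to 0.2235 and 0.06386 to 0.2234 for the log2 ratio of miR-182 to miR-183 in the pig and human tables, and 0.4501 to 0.8387 for the correlation of their changes. The cause of these changes was not tested. The replicate block changed no other call of the members, their ratios or their share. Counts of 22 to 119 reads limit miR-183, and 0 to 11 reads limit miR-96. Leaving out each number gave 0.6779 to 1.072 for the log2 ratio of miR-182 to miR-96 and 0.4985 to 0.9827 for that of miR-183 to miR-96, both lowest without number 2; with its ICH library at the floor of 3 counts they were 0.7173 and 0.5463. The ratios to miR-96 were chosen after seeing the data, as were the alternatives to the correlation with miR-486.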

Other observations

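The filter behind the deposited filtered counts did not treat the members alike. It removed 2.41% of the reads of miR-182, 15.5% of those of miR-183 and 23.0% of those of miR-96, against a median of 5.26% over the 180 pig-reference miRNAs with at least 200 reads in all. The share removed from miR-183 was 14.6% in ICH and 16.7% in Control libraries, and ran from 7.14% to 30.6% in single libraries. With the filtered counts the log2 fold change of ssc-miR-183 was 0.49 ± 0.15 (adjusted p = 0.021, edgeR with the block), against 0.41 with the unfiltered counts.

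The pig-reference table names an entry ssc-miR-1271, whose 51 reads in ICH and 58 in Control were of the order of the 67 and 71 reads of hsa-miR-1271-3p. The 18336 reads in ICH and 20001 in Control that the human-reference table gives to hsa-miR-1271-5p appear under no miR-1271 name in the pig-reference table.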
